A study of Gallus gallus with 6 samples.

Results

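Oxidative phosphorylation makes ATP in mitochondria, and most of its protein subunits are encoded in the nucleus. The genes described here were those nuclear genes as the chicken annotation names them: every symbol beginning with NDUFA, NDUFB, NDUFC, NDUFS, NDUFV, UQCR, COX4, COX5, COX6, COX7, COX8 or ATP5 was taken. This gave 69 of the 16828 genes counted, chosen by name and by no measured value. Of these, 32 were named as complex I genes, 7 as NDUFAF assembly factors of complex I, 8 as complex III, 9 as complex IV and 13 as complex V genes. No symbol began with COX8. The study asked how skeleton-forming cells arise from different embryonic sources, and the single-cell RNA sequencing analysed here came from 2 locations of untreated chicken embryos from Hubbard eggs, of both sexes. The frontonasal prominence, called nasal here, was sampled at Hamburger-Hamilton (HH) stages 15, 18 and 22, and the somite samples, dorsal brachial tissue, at HH12, HH15 and HH20. Tissue was dissociated with trypsin and captured with the 10x Genomics Chromium 3′ kit, 1 library for each location and stage. Stage and library therefore cannot be told apart within a location, and each library held tissue pooled from several embryos of a stage, whose number is not given in the sources used here.

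Complex I, the NADH dehydrogenase, has a matrix arm that takes electrons from NADH and a membrane arm that pumps protons. Complex III passes electrons on to cytochrome c, complex IV hands them to oxygen, and complex V, the ATP synthase, uses the proton gradient to make ATP. All but complex II combine nuclear subunits with subunits translated inside the mitochondrion, so both genomes contribute to one machine. In embryos, dividing progenitors are known for a high rate of glycolysis, and the balance of glycolysis and respiration is a common question. The prefixes follow gene nomenclature and not always present knowledge: NDUFA4 is now placed in complex IV, NDUFAB1 is also the mitochondrial acyl carrier protein, and COX7A2L helps complexes III and IV to associate. ATP5S is a small factor associated with the ATP synthase.

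The libraries held 7702531 to 16725073 unique molecular identifiers (UMIs, each standing for 1 captured transcript), and 16304 of 17268 cell barcodes were used, with library medians of 2230 to 3444.5 UMIs per cell. Any pair of libraries shared 2 to 22 barcodes, counted over 15 pairs. Cells were grouped by the presence of at least 1 UMI of a marker: PDGFRA (mesenchyme), NKX3-2 (sclerotome), FABP7 (neural progenitors and glia), ELAVL4 (neurons), EPCAM (epithelium) or SOX10 (neural crest and its glia). Cells with over 20% hemoglobin UMIs formed a separate group of 1 to 153 blood cells per library and were left out of the others. The groups shared cells, since 72.3 to 81.9% of EPCAM cells and 35.1 to 45.7% of PDGFRA cells also held FABP7. Without the sorting gene, the summed markers of the named cell type were higher in each group than in the other cells by their library medians. These sums were 639.8 against 320.1 CPM (UMIs scaled to a common library size) for PDGFRA, 389.6 against 92.1 for NKX3-2, 909 against 160.0 for ELAVL4, 806 against 100.2 for EPCAM, 385 against 28.7 for SOX10 and 91.7 against 26.4 for FABP7. The ranges over libraries overlapped for PDGFRA (369 to 1599 against 175 to 1115 CPM), NKX3-2, ELAVL4 and EPCAM, but not for SOX10 and FABP7. A cell can lack a UMI of a marker and still be of the named type, so the other cells may hold such cells. PDGFRA, for instance, was found in 5.66 to 9.42% of cells other than blood in the 5 libraries with a blood group. The part of such cells in the comparisons was not tested. The FABP7 sum came from 2 measured genes of 4. FABP7 was the least specific marker. Its cells made up 50.6 to 62.3% of the cells other than blood in the 5 libraries with a blood group, but 25.9 to 56.9% of the blood cells also held a FABP7 UMI, at median depths of 1914 to 3787 UMIs without hemoglobin. The share was lower in blood than in the other cells in each of these 5 libraries, and the part of free RNA in it was not tested. EPCAM was found in 0 to 2.86% of blood cells and PDGFRA in 0 to 2.86%, although blood cells were deeper with hemoglobin counted, with medians of 4688 to 12023 UMIs against 2218 to 3312.

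All 69 genes were detected, each with at least 384 UMIs in the cells used. Complex III, IV and V genes stood highest and assembly factors lowest, with library means whose medians were 444 CPM for complex III, 854 for complex IV, 629 for complex V, 299 for complex I and 9.73 for the assembly factors. The 3′ kit counts 1 tag per molecule, so these levels need no scaling to transcript length. The study's own annotation lengthened the 3′ ends of genes, and how evenly it counts different genes was not tested. ATP5MC3, one of the genes for the ring of c subunits that turns in the membrane, was the highest of all at 1884 ± 259.9 CPM (SD, n = 6). Near it were COX7C, a small complex IV subunit, at 1657 ± 505 CPM (SD, n = 6) and UQCRH, the hinge protein of complex III, at 1656 ± 184 CPM (SD, n = 6). In complex I the highest was NDUFA4 at 796 ± 80.6 CPM (SD, n = 6). At the other end of each complex stood NDUFB6 at 34.7 ± 24.1 CPM (SD, n = 6), UQCRFS1, the Rieske iron-sulfur protein, at 105 ± 6.51 CPM (SD, n = 6), COX5B at 24.6 ± 10.8 CPM (SD, n = 6) and ATP5S at 30.6 ± 4.34 CPM (SD, n = 6). Under 10 CPM were 4 genes, all assembly factors, and the lowest was NDUFAF8 at 7.03 ± 5.85 CPM (SD, n = 6).

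Together the 69 genes took a similar share of all UMIs in all libraries and in all groups of cells but blood. In cells other than blood they made up 2.96% (2.95 to 2.98%), 2.96% (2.95 to 2.97%) and 3.39% (3.38 to 3.41%) of UMIs in nasal HH15, HH18 and HH22, with exact 95% binomial intervals that cover counting error only. In the somite libraries the share was 3.37% (3.36 to 3.38%) for HH12, 3.16% (3.15 to 3.17%) for HH15 and 3.41% (3.39 to 3.42%) for HH20. The latest library was the highest of each location, and the intervals of nasal HH15 and HH18 overlapped. Complex I took 0.946 to 1.14% of UMIs, complex III 0.516 to 0.539%, complex IV 0.531 to 0.758% and complex V 0.916 to 1.05%. Within a library, the summed share in PDGFRA cells was 0.993 to 1.03 times that of the other cells, with a median of 1.02. The median ratio was 0.996 for NKX3-2, 0.987 for FABP7, 0.988 for ELAVL4, 0.993 for EPCAM and 0.992 for SOX10 cells. These ratios depend on the total used. Against UMIs outside ribosomal, mitochondrially encoded and hemoglobin genes, the ratio was 0.893 to 0.977 for FABP7 and 0.962 to 0.996 for ELAVL4 cells. On that total it was 1.02 to 1.06 for PDGFRA cells, with each range over 6 libraries. For NKX3-2, EPCAM and SOX10 cells it went both ways between libraries. In 20 SOX10 cells of nasal HH15 the share was 2.65%, the lowest of any group but blood. Blood cells held 1.03 to 1.46% against 2.96 to 3.41% in the other cells. With hemoglobin left out of the total, the shares were 3.06 to 3.40% and 2.97 to 3.43%, and the ranges overlapped.

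**Figure D1:**
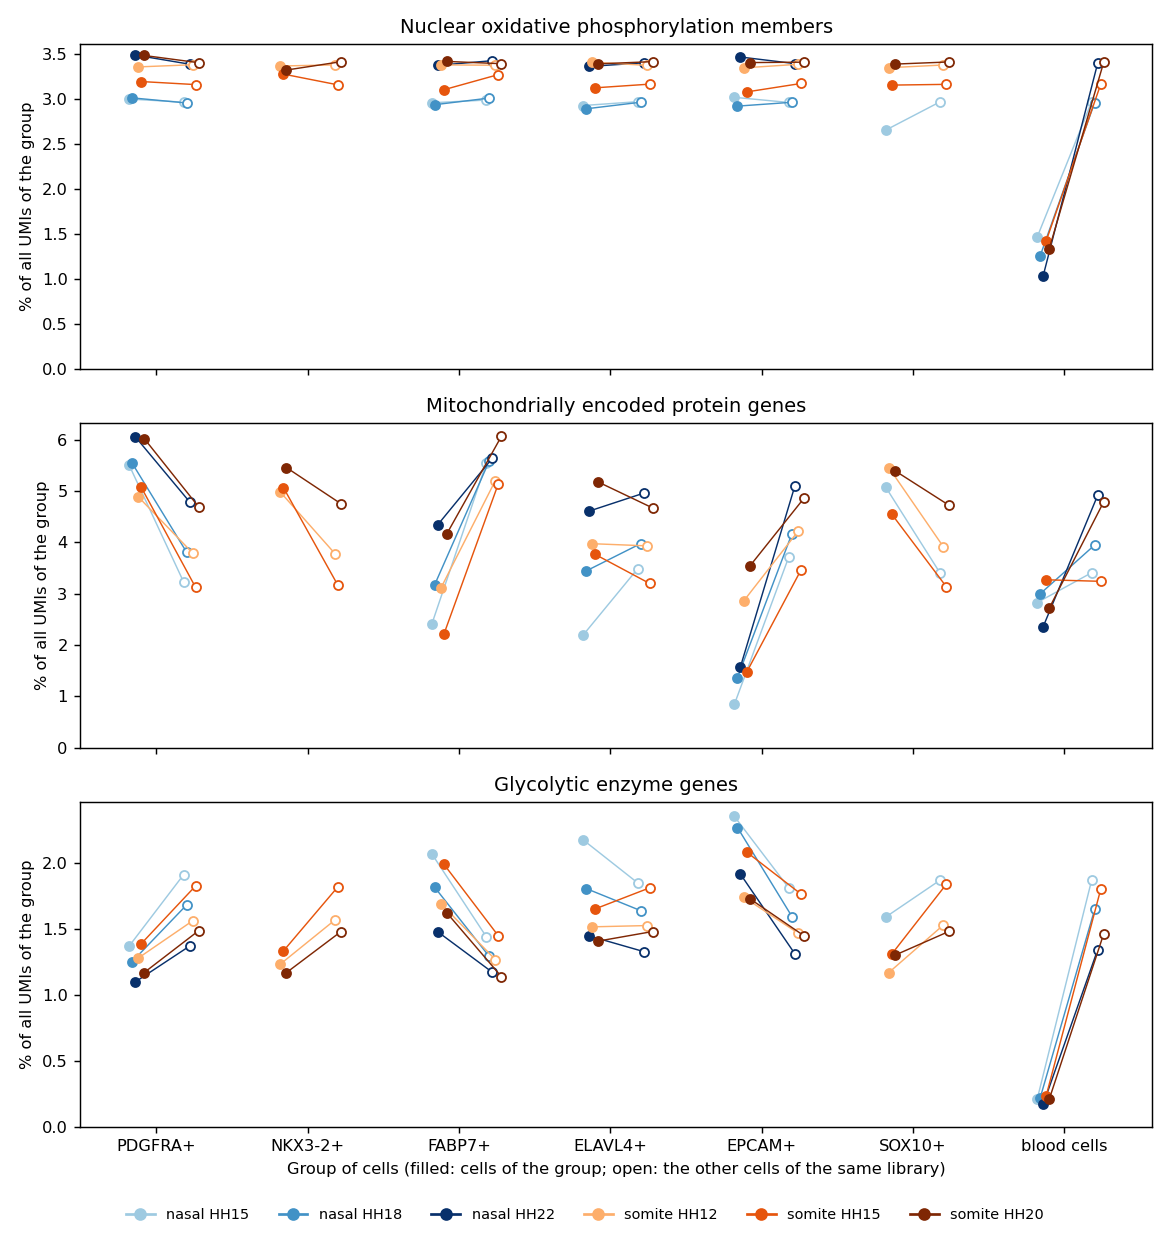
Each point is the share (%) of all UMIs of a group of cells in 1 library, filled for the group named on the x axis and open for the other cells of the same library, for the 69 nuclear genes (top), the 13 mitochondrially encoded protein genes (middle) and 15 glycolytic enzyme genes (bottom). The nuclear share stayed between 2.65 and 3.48% in all groups but blood, while the mitochondrially encoded share ran from 0.848 to 6.06%.

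These similar shares of all UMIs stood beside unequal shares of the partner genes. The 13 mitochondrially encoded protein genes took 2.21 to 4.34% of UMIs in FABP7 cells and 5.14 to 6.06% in the other cells, without overlap. In EPCAM cells the share was 0.848 to 3.53% against 3.46 to 5.10%, lower in each of the 6 libraries. PDGFRA cells went the other way, with 4.89 to 6.06% against 3.12 to 4.79%. The 15 glycolytic enzyme genes took 1.48 to 2.07% in FABP7 cells against 1.14 to 1.45%, and 1.10 to 1.39% in PDGFRA cells against 1.37 to 1.91%. These groups are not independent, since each cell without one marker can hold another. Within the nuclear set, the complex V share was higher in FABP7 cells in 6 of 6 libraries, by 1.03 to 1.13 times, and likewise in EPCAM cells, by 1.04 to 1.13 times. The complex III share was lower in 6 of 6 libraries in both. No test was run on these sums. They are shares of all UMIs, whereas the log2 fold changes below are per gene and TMM scaled, and the 2 measures can differ in direction. In EPCAM cells the complex III genes had a median log2 fold change of 0.16. In PDGFRA cells the summed share was higher in 5 of 6 libraries, yet 11 members were called higher and 22 lower.

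In FABP7 cells, 607 to 2702 per library, genes of the same complex changed in opposite directions. Counts were summed per library and group, and tested with edgeR with the library as a block. Of the 69 genes, 51 were called at an adjusted p under 0.05, beside 64.0% of all 9050 genes tested. They were 27 higher and 24 lower, beside 28.0% of all genes that were higher and 36.0% that were lower. With so many genes called in each direction, a split within a complex is not by itself a trait of these members. The direction was the same in every library for 43 of the 51. The matching count over all called genes is not given, here or for the comparisons below. The median log2 fold change was 0.05 over the 69 genes and -0.12 over all genes. Complex V leaned to one side, with 7 of 13 higher and 2 lower. Complex I was divided evenly, 12 of 32 higher and 12 lower, complex III had 3 of 8 higher and 2 lower, complex IV 3 of 9 and 4, and the assembly factors 2 of 7 and 4. FABP7 cells were also deeper, with medians of 2629 to 3951 UMIs per cell against 1903 to 3067.5, and their summed markers also differed for epithelium, at a median of 265 against 125 CPM, and for mesenchyme, at 243 against 634 CPM. The part of other cell types in the differences was not tested. With cells thinned to 1500 UMIs each, 28 genes were higher and 16 lower, 43 of them called before. With at least 2 UMIs of FABP7, 28 were higher and 24 lower. Where a changed setting is given here or below without its share of all genes called, the count is not by itself a result about the members.

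Among the genes that rose was NDUFV2, an iron-sulfur subunit of the NADH-oxidising tip of complex I. Its levels were 211, 278 and 333 CPM in the lowest, the median and the highest library in FABP7 cells and 109.8, 149 and 182 CPM in the other cells, and levels are given in this order for all comparisons of 6 libraries. Every FABP7 group lay above every other group (log2 fold change 0.89 ± 0.09 (SE), adjusted p = 8.41e-08, n = 6 libraries). ATP5F1C, the gamma subunit that turns inside the ATP synthase, stood at 578, 747 and 977 CPM against 376, 422 and 558 CPM. It too showed no overlap (log2 fold change 0.78 ± 0.07 (SE), adjusted p = 3.23e-08). NDUFA9, which sits where the arms of complex I meet, was 0.70 ± 0.09 on the log2 scale, NDUFAF4, an early assembly factor, 0.68 ± 0.09, and UQCRB, a subunit of complex III, 0.64 ± 0.06. Each of these was higher in FABP7 cells in 6 of 6 libraries, although the ranges of the groups overlapped across libraries.

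The genes that fell came from the same complexes as those that rose. UQCRFS1 stood at 76.8, 87.3 and 124 CPM in FABP7 cells and 127, 147 and 169 CPM in the others. All FABP7 groups were below all other groups (log2 fold change -0.67 ± 0.09 (SE), adjusted p = 2.35e-06). COX5A, a nuclear subunit on the matrix side of complex IV, stood at 58.5, 88.0 and 124 CPM against 119, 165 and 197 CPM. Its ranges overlapped across libraries, but it was lower in each of the 6 (log2 fold change -0.86 ± 0.08 (SE), adjusted p = 2.8e-08). NDUFAB1 was lower as well (log2 fold change -0.90 ± 0.10 (SE), adjusted p = 2.01e-07), with NDUFS3, a core subunit near the quinone site, at -0.65 ± 0.10 and NDUFAF8 at -0.69 ± 0.18. ATP5F1B, the catalytic beta subunit of the ATP synthase, stood at 435, 531 and 594 CPM against 697, 732 and 826 CPM. It fell while the gamma subunit rose (log2 fold change -0.51 ± 0.07 (SE), adjusted p = 2.23e-06).

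EPCAM cells, most of which also held FABP7, also had genes of the same complex on both sides. In 47 to 406 such cells per library, 44 of the 69 genes were called, beside 39.6% of 8682 genes tested. Of these 27 were higher and 17 lower, beside 20.8% and 18.8% of all genes, so calls in both directions were common among all genes too. The medians were 0.10 for the 69 genes and -0.04 for all genes. The direction was the same in every library for 41 of the 44. Complex V had 9 of 13 higher and 2 lower, complex I 11 of 32 and 9, complex III 3 of 8 and 1, complex IV 3 of 9 and 3, and the assembly factors 1 of 7 and 2. NDUFA12, a matrix arm subunit of complex I, stood at 446, 597 and 709.7 CPM in EPCAM cells and 333, 378 and 425 CPM in the others. The groups did not overlap (log2 fold change 0.61 ± 0.08 (SE), adjusted p = 6.67e-06, n = 6 libraries). ATP5S was 0.66 ± 0.14 on the log2 scale, ATP5F1C 0.59 ± 0.08, NDUFA9 0.58 ± 0.12 and UQCRB 0.54 ± 0.09. On the lower side stood NDUFAF6, which assists the assembly of the membrane arm, with levels of 0, 4.18 and 5.97 CPM against 6.80, 11.3 and 13.5 CPM. It rests on 0 to 11 UMIs per library in EPCAM cells, with 2 libraries at 0, and the groups did not overlap (log2 fold change -1.29 ± 0.34 (SE), adjusted p = 0.0048). UQCRFS1 stood at 40.7, 60.9 and 72.5 CPM against 96.5, 106 and 131 CPM. It was lower in EPCAM cells of every library, again without overlap (log2 fold change -0.86 ± 0.13 (SE), adjusted p = 4.21e-05). NDUFAB1 was -1.13 ± 0.19 and COX5A -0.93 ± 0.15.

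The EPCAM calls and values changed with the setting. Markers of other cell types also moved with EPCAM: those of mesenchyme summed to 55.9 to 259 CPM (median 109, 6 of 6 measured) in EPCAM cells and 261 to 1245 CPM (median 394) in the others. Those of neural progenitors summed to 956 to 1763 CPM (median 1172, 3 of 5 measured) in EPCAM cells and 403 to 1330.0 CPM (median 876) in the others. FABP7 itself was 1 of these 3 genes, and without it the list summed to 74.6 to 102 CPM in FABP7 cells. Those of neurons summed to 158 to 669 CPM (median 425, 4 of 5 measured) in EPCAM cells and 116 to 754 CPM (median 203) in the others. The part of other cell types in these differences was not tested. EPCAM cells held medians of 3250 to 4906.5 UMIs against 2146 to 3285 in the other cells, and after thinning to 1500 UMIs per cell 7 genes were higher and 5 lower, all 12 called before. ATP5S, NDUFA9, NDUFAF6 and NDUFAB1 were not among these 12. When only cells with exactly 1 of PDGFRA, FABP7, ELAVL4, EPCAM and SOX10 were compared, 4 libraries with 28 to 74 EPCAM cells were left. No member was called in this setting. The share of all genes called in it is not given here, so the lack of calls is not by itself a result about the members. ATP5S was then -0.22, NDUFA12 -0.13, ATP5F1C -0.24, NDUFA9 -0.57 and UQCRB -0.18 on the log2 scale, and COX5A was 0.25, UQCRFS1 0.25 and NDUFAB1 0.01, each with its sign changed. In that setting most of the other cells were FABP7 cells, 935 of 1209 in somite HH12 for instance. The setting also left out the EPCAM cells that held FABP7, and it kept fewer cells and libraries. The source of the changed signs was not tested.

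In PDGFRA cells, the mesenchymal group of 113 to 350 cells per library, 33 of the 69 genes were called, beside 32.6% of 8455 genes tested. Of these 11 were higher and 22 lower, beside 16.1% and 16.5% of all genes. The medians were -0.01 for the 69 genes and 0.08 for all genes, and 26 of the 33 went the same way in every library. The fitted values of all 69 ran from -0.60 to 0.50 on the log2 scale. Complex V had 1 of 13 higher and 7 lower. Complex I had 6 of 32 higher and 9 lower, complex III 1 of 8 and 3, complex IV 2 of 9 and 2, and the assembly factors 1 of 7 and 1. ATP5F1C stood at 373, 453 and 500.4 CPM in PDGFRA cells and 529, 664 and 844 CPM in the others. The PDGFRA groups were all below the other groups (log2 fold change -0.56 ± 0.07 (SE), adjusted p = 7.09e-07, n = 6 libraries). NDUFA9 was -0.60 ± 0.12, NDUFV2 -0.57 ± 0.09, ATP5S -0.53 ± 0.16 and NDUFAF4 -0.48 ± 0.12. ATP5F1B stood at 702, 753 and 800.0 CPM against 524, 598 and 683 CPM. It was higher in PDGFRA cells with no overlap (log2 fold change 0.34 ± 0.06 (SE), adjusted p = 8.31e-05). UQCRFS1 was 0.36 ± 0.08, NDUFB2, a membrane arm subunit, 0.24 ± 0.08 and COX6A1, the broadly expressed form of its complex IV subunit, 0.22 ± 0.07.

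PDGFRA cells had medians of 2352.5 to 3349 UMIs against 2213 to 3302, close to the other cells. Markers of other cell types also moved with PDGFRA. Those of neural progenitors summed to 193 to 293 CPM (median 237, 3 of 5 measured) in PDGFRA cells and 584 to 1438 CPM (median 961) in the others. The neural progenitor sums include FABP7. Those of neurons summed to 40.3 to 175 CPM (median 97.6, 4 of 5 measured) in PDGFRA cells and 129 to 796 CPM (median 235) in the others, and those of epithelium to 28.5 to 556 CPM (median 41.0, 5 of 6 measured) in PDGFRA cells and 63.2 to 529.6 CPM (median 235) in the others. The part of other cell types in these differences was not tested. Thinning left 19 calls, 2 higher and 17 lower, all made before, and DESeq2 gave 5 higher and 23 lower. NDUFB2 and COX6A1 were below the threshold with DESeq2. The PDGFRA, FABP7 and EPCAM comparisons were made on the same cells, so their signs are not separate evidence. The values of ATP5F1C, for instance, were 0.78 in the FABP7, 0.59 in the EPCAM and -0.56 in the PDGFRA comparison, and those of ATP5F1B -0.51, -0.72 and 0.34.

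**Figure D2:**
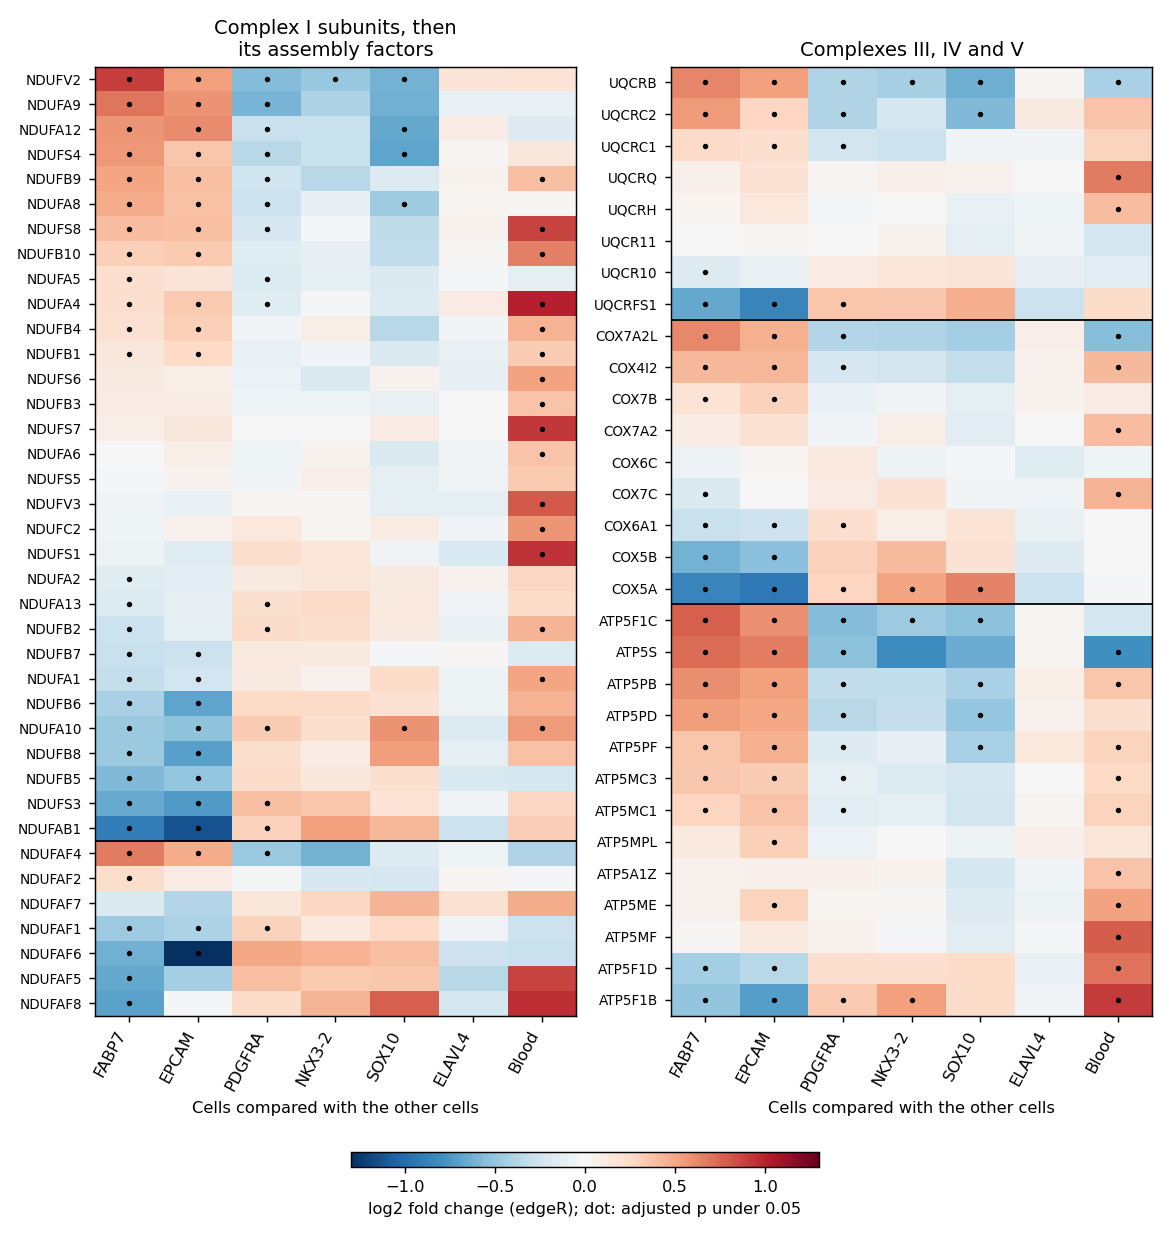
The colour of each cell gives the log2 fold change of 1 gene between cells with the marker named below the column (or blood cells) and the other cells of the same libraries, with a dot where the adjusted p was under 0.05. Complex I subunits and assembly factors are on the left and complexes III, IV and V on the right, with 1 gene not shown, each ordered by the FABP7 value, from NDUFV2 at 0.89 to NDUFAB1 at -0.90 in complex I.

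**Figure D3:**
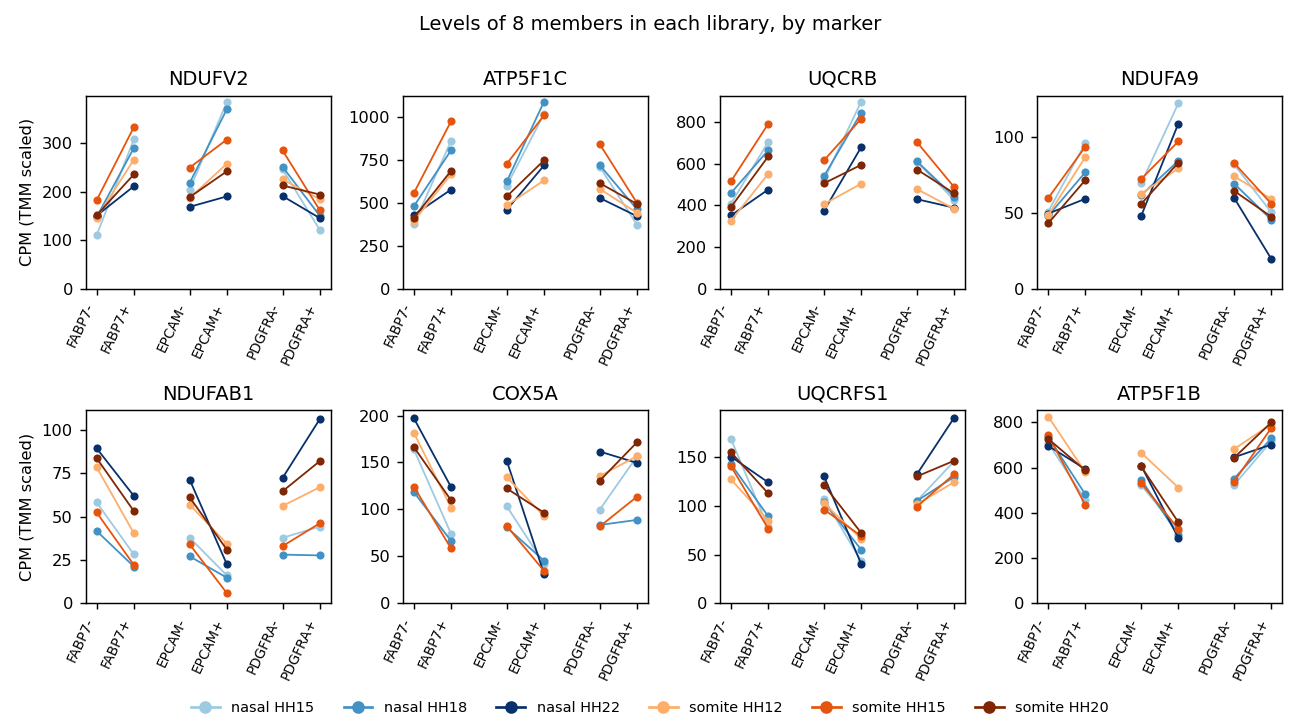
Each panel shows CPM (TMM scaled, y axis from 0) of 1 gene in the cells without (-) and with (+) a marker, with a line joining the groups of the same library and a colour for each of the 6 libraries. The 4 genes of the upper row were higher in FABP7 and EPCAM cells and lower in PDGFRA cells of every library, and NDUFAB1, COX5A, UQCRFS1 and ATP5F1B in the lower row were lower in FABP7 and EPCAM cells.

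NKX3-2 cells, tested in the 3 somite libraries with 86 to 388 such cells, differed in 6 of the 69 genes, beside 9.67% of 8998 genes tested. There were 3 higher and 3 lower, beside 4.37% and 5.30% of all genes, with medians of 0.02 for both sets. ATP5F1B stood at 905, 915 and 784 CPM in NKX3-2 cells of somite HH12, HH15 and HH20 and at 647, 529.8 and 627 CPM in the other cells. The groups did not overlap (log2 fold change 0.53 ± 0.11 (SE), adjusted p = 0.00209, n = 3 libraries). COX5A stood at 176, 137 and 166 against 129, 80.3 and 128 CPM. It too was higher in every library (log2 fold change 0.52 ± 0.15 (SE), adjusted p = 0.0236). ATP5F1C was lower, at 460.3, 444 and 489 against 562, 825 and 593 CPM (log2 fold change -0.47 ± 0.12 (SE), adjusted p = 0.0132), and so were NDUFV2 (-0.50 ± 0.15) and UQCRB (-0.43 ± 0.11). These calls rest on few libraries: 1 was left without somite HH12, 1 without somite HH15 and 3 with DESeq2. The share of all genes called in these settings is not given. DESeq2 size factors gave 3 higher and 6 lower. Markers of neural progenitors summed to 202 to 389 CPM (median 208, 3 of 5 measured) in NKX3-2 cells and 587 to 1408 CPM (median 827) in the others. Both sums include FABP7. Medians were 526 against 227 CPM for mesenchyme markers and 196 against 419 CPM for those of epithelium. The part of other cell types in these differences was not tested.

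SOX10 cells, the neural crest group, were tested in 4 libraries, with 20 to 204 cells each. Of the 69 genes 12 were called, beside 10.1% of 8393 genes tested. There were 2 higher and 10 lower, beside 3.80% and 6.31% of all genes, and the medians were -0.10 and -0.03. NDUFS4, an accessory subunit needed to complete the NADH-oxidising tip of complex I, stood at 169, 177, 264 and 217 CPM in nasal HH15 and somite HH12, HH15 and HH20, against 307, 343, 382 and 329 CPM in the other cells. All 4 SOX10 groups were below all other groups (log2 fold change -0.68 ± 0.17 (SE), adjusted p = 0.00136, n = 4 libraries). NDUFA12 stood at 295, 241, 290.2 and 276 against 485, 404, 477 and 397 CPM, also without overlap (log2 fold change -0.66 ± 0.16 (SE), adjusted p = 0.000988). UQCRB was -0.63 ± 0.15, NDUFV2 -0.62 ± 0.18 and UQCRC2, a core protein of complex III, -0.58 ± 0.19, and 4 of 13 complex V genes were lower with none higher. Of the 2 members that rose, COX5A stood at 183, 191, 122 and 217 against 105, 139, 82.9 and 126 CPM, on 13 to 122 UMIs in the SOX10 cells. It was higher in every library, though the ranges overlapped (log2 fold change 0.65 ± 0.19 (SE), adjusted p = 0.00981). The other was NDUFA10, an accessory subunit of the membrane arm (log2 fold change 0.58 ± 0.18 (SE), adjusted p = 0.0195). Without somite HH15 1 member was called, after thinning 4, of which 3 were called before, and with DESeq2 7. Markers of mesenchyme summed to 45.7 to 383 CPM (median 129.7, 6 of 6 measured) in SOX10 cells and 241 to 459 CPM (median 285) in the others. Medians were 66.1 against 351 CPM for epithelium markers and 554 against 938 CPM for neural progenitor markers, FABP7 included. The part of other cell types in these differences was not tested.

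In ELAVL4 cells, the neuronal group, no member was called in 6 libraries of 116 to 363 such cells, beside 2.66% of 8388 genes tested by edgeR. At an unadjusted p under 0.05 there were 4 members, beside 12.4% of all genes, and DESeq2 called none either. The fitted values of the 69 genes ran from -0.36 to 0.20 with a median of -0.04. Mitochondrially encoded shares were 2.19 to 5.17% in ELAVL4 cells and 3.20 to 4.96% in the others, and overlapped. With cells of 1 marker only, 3 members were higher and 13 lower of 68 tested, beside 18.7% of 6669 genes called. With at least 2 UMIs of ELAVL4, 5 were lower, beside 12.2% of 8193 genes called. Of the ELAVL4 cells, 55.1 to 71.0% also held FABP7. Neuron markers without ELAVL4 summed to 166 to 1454 CPM against 94.9 to 271 CPM in the others, so the ranges overlapped. Markers of neural progenitors, FABP7 included, had medians of 1036 against 903 CPM. The part of other cell types in this result was not tested.

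Blood cells were compared after the 7 hemoglobin genes, which defined them, were taken out of the counts, and most called members were higher. In 5 libraries with 27 to 153 such cells, 33 of the 69 genes were called, beside 40.8% of 7890 genes tested. Of these 30 were higher and 3 lower, beside 12.8% and 28.0% of all genes, and the medians were 0.33 for the 69 genes and -0.32 for all genes. These directions hold on the TMM scale of edgeR. As a plain share of UMIs without hemoglobin, the 69 genes together were 0.934 to 1.11 times the other cells, higher in 3 of 5 libraries. Of the 33, 24 went the same way in every library. Complex I had 16 of 32 higher and none lower, complex V 9 of 13 and 1, complex IV 3 of 9 and 1, and complex III 2 of 8 and 1, while no assembly factor was called. NDUFA4 stood at 1388, 1443, 1857, 1331 and 1510.4 CPM in blood cells of nasal HH15, HH18 and HH22 and somite HH15 and HH20, and at 673, 673, 721, 771 and 908 CPM in the other cells. The groups did not overlap (log2 fold change 1.01 ± 0.11 (SE), adjusted p = 8.17e-18, n = 5 libraries). ATP5F1B stood at 945, 1079, 914, 961 and 1041 against 472, 507, 583, 474 and 585 CPM. Every blood group was above every other group (log2 fold change 0.91 ± 0.12 (SE), adjusted p = 1.05e-12). NDUFS8, a core iron-sulfur subunit, stood at 525, 635, 553, 407 and 477 against 272, 304, 261, 309 and 286 CPM, likewise without overlap (log2 fold change 0.88 ± 0.14 (SE), adjusted p = 2.41e-09). NDUFS7, another core iron-sulfur subunit, was 0.92 ± 0.17 and NDUFV3, an accessory subunit of the same arm, 0.80 ± 0.13.

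The genes lower in blood were COX7A2L, ATP5S and UQCRB. COX7A2L stood at 175, 102, 158, 148 and 184 CPM in blood cells against 245, 259.8, 177, 254 and 221 CPM, lower in each library though the ranges overlapped (log2 fold change -0.55 ± 0.17 (SE), adjusted p = 0.00495). ATP5S was -0.80 ± 0.34 (adjusted p = 0.0473), on 1 to 9 UMIs per library in the blood cells, and UQCRB, lower in 4 of 5 libraries, was -0.42 ± 0.14 (adjusted p = 0.00868). None of the 3 was called lower when ribosomal, mitochondrially encoded and hemoglobin genes were all left out, a setting with 34 higher and 0 lower. Most ribosomal protein genes rose in blood, with 68 of 70 called higher and 1 lower. As a share of UMIs outside these classes the 69 genes took 5.70 to 6.69% in blood and 4.44 to 5.59% in the other cells. Thinning each cell to 1500 UMIs, most of them hemoglobin in blood cells, left 2 higher and 2 lower and a median of 0.04. Without nasal HH18, 19 were higher and 1 lower.

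**Figure D4:**
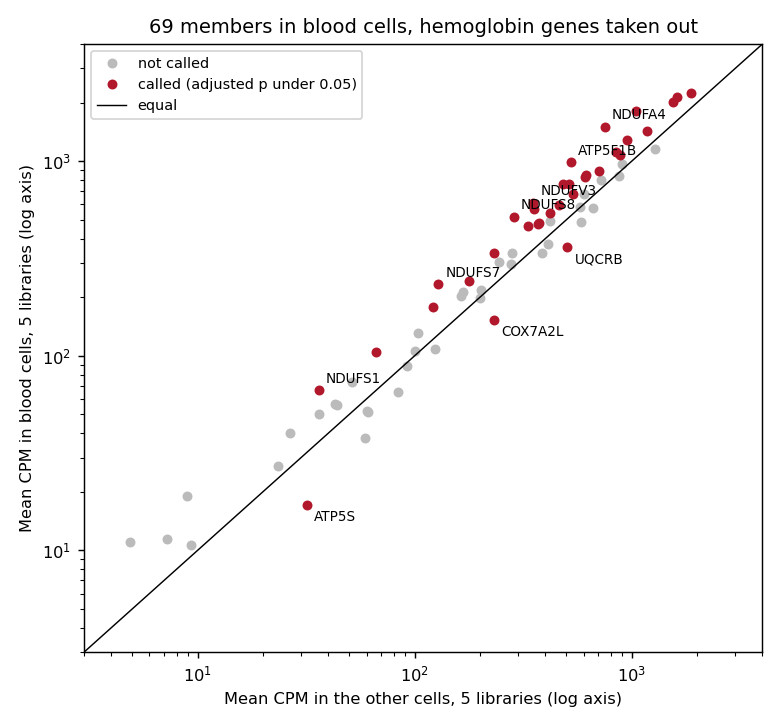
Each point is 1 of the 69 genes, with its mean CPM over 5 libraries in the other cells (x, log axis) and in blood cells (y, log axis), hemoglobin genes taken out, and red where the adjusted p was under 0.05. Most red points lie above the line of equality, NDUFA4 and ATP5F1B among them, and ATP5S, COX7A2L and UQCRB lie below it.

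Between libraries, the genes spread about as widely as all genes did, and a few of them varied many times more than the rest. Of the 69 genes, 67 had a mean of at least 10 CPM over the libraries in cells other than blood and were compared in those cells. The highest library was at least 2 times the lowest for 15 of them (22.4%, beside 22.4% of 6339 genes), at least 3 times for 7 (10.4% beside 9.43%) and at least 5 times for 4 (5.97% beside 4.37%). The median of this ratio was 1.46 over the 67 genes and 1.59 over all genes. The genes named in this paragraph were chosen after their values were seen. NDUFB7, a subunit of the outer membrane arm of complex I, stood at 60.2, 46.3 and 153 CPM in nasal HH15, HH18 and HH22 and 709, 162 and 253 CPM in somite HH12, HH15 and HH20. Somite HH12 was far above the rest, 15.3 times nasal HH18. COX6A1 stood at 105, 78.9 and 294 CPM in the nasal and 782, 187 and 411 CPM in the somite libraries. NDUFB2 stood at 83.0, 57.1 and 289 CPM in the nasal and 514, 149 and 377 CPM in the somite libraries. For both, as for NDUFB7, somite HH12 was highest and nasal HH18 lowest. By contrast, UQCRH varied little, at 1811, 1877 and 1655 CPM in the nasal and 1652, 1760.2 and 1726 CPM in the somite libraries. Nasal HH18 was the lowest library for 24 of the 67 genes (35.8%), beside 10.4% of all genes. The source of these differences between libraries was not tested.

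Change with stage was fitted as a slope per HH stage within location, over 6 libraries. No member was called, beside 0.839% of 10137 genes, with 4 members at an unadjusted p under 0.05 by edgeR (18.5% of all genes) and none called by DESeq2. In PDGFRA cells alone, no member of 65 tested was called either, beside 1.12% of 5260 genes, with 11 at an unadjusted p under 0.05 by edgeR (13.4% of all genes). Both counts moved without somite HH12, the youngest library, and the count in PDGFRA cells also moved with no filter on low counts. Without somite HH12, 16 members were called, 13 rising with stage and 3 falling, beside 15.6% of 10385 genes. In PDGFRA cells 10 rose and none fell without it, beside 4.41% of 5242 genes. ATP5ME, a small membrane subunit of the ATP synthase, stood at 373, 317 and 1040.3 CPM in the nasal and 822, 506 and 1100.3 CPM in the somite libraries. The latest library of each location was highest, and somite HH12 lay between the other somite libraries (0.21 ± 0.04 (SE) per stage on the log2 scale without somite HH12, adjusted p = 0.0221). COX7C stood at 1208, 1033 and 2485 CPM in the nasal and 2273, 1483 and 2223 CPM in the somite libraries, with somite HH12 as high as HH20. NDUFAF4 went down with stage in that setting, with levels of 81.7, 75.9 and 41.4 CPM in the nasal and 60.0, 77.9 and 48.1 CPM in the somite libraries (-0.15 ± 0.03 per stage without somite HH12). With 1 library per stage and location, a change with stage and a difference between libraries cannot be told apart.

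**Figure D5:**
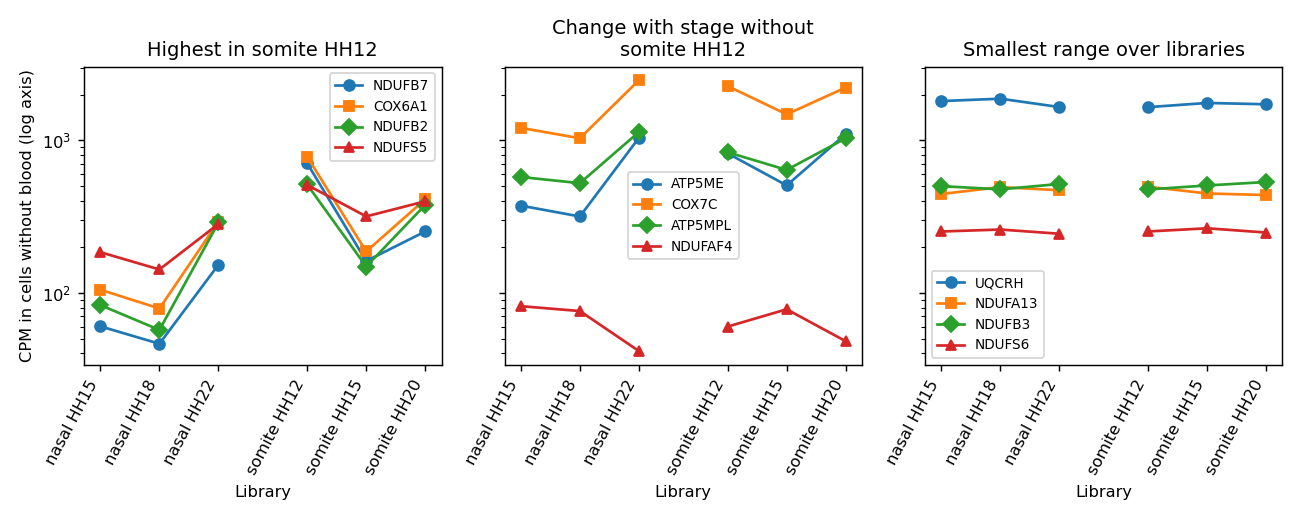
CPM in cells other than blood (y, log axis) of 12 genes in the 6 libraries (x), nasal on the left and somite on the right of each panel. The left panel holds 4 genes highest in somite HH12, with NDUFB7 from 46.3 to 709 CPM, the middle panel 4 genes called with stage without somite HH12, and the right panel 4 genes of small range.

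Nasal and somite libraries were compared with the 3 stages of a location as its replicates, so p-values measure a spread that includes stage. No member was called in cells other than blood, beside 2.26% of 10137 genes, with 7 at an unadjusted p under 0.05 by edgeR (13.0% of all genes) and 2 called by DESeq2 (5.13% of all genes). In PDGFRA cells none of 65 was called, beside 1.98% of 5260 genes, with 9 at an unadjusted p under 0.05 (12.6% of all genes) and 3 called by DESeq2 (2.30% of all genes). The nearest in PDGFRA cells was NDUFS5, a membrane arm subunit of complex I, with nasal levels of 192, 127 and 284 CPM at HH15, HH18 and HH22 against 549.9, 365 and 495 CPM at HH12, HH15 and HH20. The locations did not overlap, but the adjusted p missed the threshold (log2 fold change -1.26 ± 0.28 (SE), adjusted p = 0.0504, n = 3 libraries in each location). NDUFS7 had nasal levels of 109, 105 and 154 CPM at HH15, HH18 and HH22 against 249, 187 and 229 CPM at HH12, HH15 and HH20 (log2 fold change -0.88 ± 0.20 (SE), adjusted p = 0.0543). COX6C, a complex IV subunit, went the other way, at 1259.8, 1327 and 1404 CPM at HH15, HH18 and HH22 against 814, 765 and 972 CPM at HH12, HH15 and HH20 (log2 fold change 0.65 ± 0.15 (SE), adjusted p = 0.069). NDUFB7 had the largest fitted difference, -2.13 ± 0.54 with an adjusted p of 0.0897. Other settings called up to 8 members in PDGFRA cells, the most without a filter on low counts, beside 4.60% of 12560 genes in that setting. The 3 called by DESeq2 were NDUFS5 (adjusted p = 0.00137), COX6C (adjusted p = 0.0433) and NDUFS7 (adjusted p = 0.0457). With stage as a covariate, edgeR called NDUFS5 (adjusted p = 0.0184) and NDUFS7 (adjusted p = 0.0318). With all barcodes kept it called NDUFS7 but not NDUFS5. Whether the PDGFRA difference itself depended on location was tested as an interaction. No member was called, beside 0.520% of 8455 genes, with 3 at an unadjusted p under 0.05 by edgeR (8.35% of all genes) and none called by DESeq2, and the largest of these 3 was COX5B (log2 fold change 0.82 ± 0.29 (SE), adjusted p = 0.329).

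The rest of the pathway placed these changes beside genes of related function. The counts here and in the next paragraph stand beside the shares of all genes called higher and lower. These were 28.0% and 36.0% in FABP7, 20.8% and 18.8% in EPCAM, and 16.1% and 16.5% in PDGFRA cells. They were 4.37% and 5.30% in NKX3-2, 3.80% and 6.31% in SOX10, and 12.8% and 28.0% in blood cells. All 13 mitochondrially encoded subunits were lower in FABP7 and in EPCAM cells, with medians of -0.67 and -1.09, and 12 of 13 were higher in PDGFRA cells, with a median of 0.45. MT-CO1, the catalytic subunit of complex IV, was -0.72 ± 0.08 in the FABP7, -1.18 ± 0.14 in the EPCAM and 0.43 ± 0.05 in the PDGFRA comparison, on the log2 scale with its SE. In blood cells 12 of 13 were higher, with a median of 1.10. Complex II, which feeds electrons from succinate, also had genes on both sides. In FABP7 cells SDHB was 0.74 ± 0.08 and SDHC 0.76 ± 0.07, whereas SDHD was -0.79 ± 0.09, and SDHA was not called. CYCS, cytochrome c itself, was 0.50 ± 0.06 in FABP7 and -0.41 ± 0.12 in blood cells. Of 11 tricarboxylic acid cycle genes tested, 6 were higher and 1 lower in FABP7 cells, 6 and 0 in EPCAM cells, and 0 and 2 in PDGFRA cells.

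Of 7 carriers of the mitochondrial membranes, 5 were higher and none lower in FABP7 and in EPCAM cells. In PDGFRA cells 5 were lower and none higher, and in NKX3-2 and SOX10 cells 4 were lower and none higher. SLC25A5, an ADP/ATP exchanger, was 0.74 ± 0.07 in the FABP7 and -0.49 ± 0.06 in the PDGFRA comparison, and -0.89 ± 0.14 in blood cells. The carriers were divided in blood cells, with 2 of 7 higher and 3 lower and values from -0.89 to 3.58. Of 8 regulators of mitochondrial gene expression tested, 1 was higher and 7 lower in FABP7 cells, and 5 were higher and none lower in PDGFRA cells. TFB1M, which modifies mitochondrial ribosomal RNA, was the one that rose in FABP7 cells (0.70 ± 0.13), and PPRC1, a PGC-1-related coactivator, was among those that fell (-0.54 ± 0.11). Glycolytic enzymes were higher for 11 of 15 in FABP7 and 10 of 15 in EPCAM cells, lower for 10 of 15 in PDGFRA cells, and lower for 13 of 14 tested in blood cells. LDHA, which makes lactate, was 1.57 ± 0.14, 1.09 ± 0.20, -1.48 ± 0.16 and -1.69 ± 0.26 in these comparisons. Ribosomal protein genes were higher for 40 and lower for 7 of 70 in FABP7 cells, and lower for 26 and higher for 3 in PDGFRA cells. COX17, a copper chaperone of complex IV assembly, was 1.80 ± 0.14 in blood cells, where 2 of 16 assembly factors were higher and 1 lower.

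Some names limit what can be read from a single gene. RefSeq gives another symbol for 9 of the 69, among them COX4I1 for the gene listed as COX4I2 and UQCRHL for the gene listed as UQCRH, so a tissue-restricted paralog cannot be assumed from the name. COX4I2 as listed stood at 976 ± 86.2 CPM (SD, n = 6). It was higher in FABP7 cells (log2 fold change 0.42 ± 0.06 (SE), adjusted p = 4.77e-06) and in blood cells (log2 fold change 0.42 ± 0.11 (SE), adjusted p = 0.000859). Of the c subunit genes, ATP5MC1 stood at 1214 ± 215 CPM (SD, n = 6) beside the higher ATP5MC3, and both were higher in FABP7 cells, at 0.28 ± 0.06 and 0.35 ± 0.05. Their mature proteins are nearly identical, but the transcripts differ, and reads matching both could be split by the counting. The alpha subunit was listed by its Z chromosome copy only, ATP5A1Z, at 407 ± 92.3 CPM (SD, n = 6), with 0.37 ± 0.14 in blood cells.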

How the data were processed

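The authors deposited UMI counts per gene and cell barcode for 6 libraries, which their Cell Ranger run produced from GRCg6a and their own gene annotation, without normalization. Barcodes over 4 times the library mean or under 0.2 times its median UMI count, and those more than 3 median absolute deviations above the median mitochondrial share and over 0.1 of UMIs with no more UMIs than the median, were removed, by limits the study states. Its further limit on the ratio of UMIs to genes was not applied. Doublets were scored with scrublet (scanpy 1.11.5, Python 3.11.15), and the highest-scoring share, 0.008 per 1000 cells, was removed (425 of 16729). Counts were summed per library and group with at least 20 cells and tested with edgeR 4.0.16 (R 4.3.3; TMM, filterByExpr, quasi-likelihood, Benjamini-Hochberg over all genes tested), as log2 fold changes. Library was a block in comparisons of cells. DESeq2 1.42.0 was an alternative. The test was checked on simulated counts. Cells were never replicates, and the study describes libraries as independent samples of pooled embryos at different stages. In comparisons of cells, p-values measure how the difference within a library varied between such pools. For nasal against somite they measure the spread between pools, which includes stage, and for stage the spread around the slope. In each comparison and direction, up to 5 called members with the largest change and the same direction in every library were named, besides the highest and lowest member of each complex and isoform genes. ATP5F1B in FABP7 and EPCAM cells, UQCRB in blood cells, and the genes named between libraries, stages and locations were chosen after their values were seen. A member that met this rule is not reported here. The symbol rule for the members uses no measured value, but it and the lists were chosen with earlier results of these data known. RefSeq matched 64 of 69 members by symbol or synonym (GRCg7b, names only).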

Additional observations from a re-analysis of the deposited data

How the results depend on the processing

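The counts of called members are given here as higher plus lower under each alternative that moved them by over 1.5 times or changed a count of 0. The share of all genes called also moved between settings and is given for some of them only. In the stage fit, for instance, it went from 0.839 to 15.6% without somite HH12. A moved count is therefore not by itself a result about the members. Thinning cells to 1500 UMIs gave 19 for PDGFRA, 12 for EPCAM, 4 for SOX10 and 4 for blood cells. Without the library block there were 3 for PDGFRA, 0 for NKX3-2, 29 for FABP7, 22 for EPCAM and 0 for SOX10. DESeq2 gave 3 for NKX3-2 and 7 for SOX10. It gave 2 for nasal against somite (5.13% of all genes) and 3 for the same within PDGFRA cells (2.30% of all genes). With no filter on low counts there were 13 for NKX3-2, 3 for ELAVL4 and 3 for stage in PDGFRA cells. For location in PDGFRA cells that setting gave 8 (4.60% of all genes). Keeping all barcodes gave 11 for NKX3-2 and 1 for location in PDGFRA cells, where DESeq2 size factors gave 1, stage as a covariate 2 and leaving out ribosomal, mitochondrially encoded and hemoglobin genes 3. At least 2 UMIs of ELAVL4 gave 5 (12.2% of all genes). Cells with 1 of 5 markers gave 16 for ELAVL4 and 0 for EPCAM, where ATP5S was -0.22, NDUFA12 -0.13, ATP5F1C -0.24, NDUFA9 -0.57, UQCRB -0.18, NDUFAB1 0.014, COX5A 0.25 and UQCRFS1 0.25. Leaving out each library in turn gave 22 to 30 for PDGFRA, 1 to 8 for NKX3-2, 46 to 51 for FABP7, 37 to 42 for EPCAM, 1 to 11 for SOX10, 20 to 31 for blood, 0 to 1 for location, 0 to 6 for location in PDGFRA cells, 0 to 16 for stage and 0 to 10 for stage in PDGFRA cells, with 0 throughout for ELAVL4 and for the interaction. Counts moved by over 1.5 times, or from 0, without somite HH12 (both stage fits and NKX3-2), somite HH15 (NKX3-2 and SOX10), nasal HH18 (blood), nasal HH22 (both location fits) and somite HH20 (location in PDGFRA cells). As a share of UMIs outside ribosomal, mitochondrially encoded and hemoglobin genes, the median summed ratio was 1.04 for PDGFRA, 1.05 for NKX3-2, 0.953 for FABP7, 0.978 for ELAVL4, 0.979 for EPCAM, 1.02 for SOX10 and 1.28 for blood cells, so that NKX3-2, SOX10 and blood went from under 1 to over 1. Of 659 alternatives for 50 named pairs of member and comparison, 556 kept direction and side of the threshold, 95 kept direction only and 8 changed sign. Of the pairs that kept direction only, 24 of 49 tested came from thinning and 21 of 50 from leaving out the library block. The cause of these moves was not tested, and thinning and the 1-marker setting also leave fewer UMIs or cells. Too few cells were left to run the setting of at least 2 UMIs for PDGFRA, NKX3-2 and SOX10, or of 1 marker for SOX10. Nasal and somite libraries could not be paired with each other, because the labels give no replicate numbers that link them. Depth limits the scarce members: ATP5S in blood cells rests on 1 to 9 UMIs per library.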
